A study of Mus musculus with 8 samples.

Results

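Chromatin accessibility was described at 8 genes of the G1 cyclins and their kinases in mouse hepatocytes, before and during liver regeneration. The genes were Ccnd1, Ccnd2, Ccnd3, Ccne1, Ccne2, Cdk2, Cdk4 and Cdk6, 8 of 21851 protein-coding genes, chosen by name with earlier results of these data known. Every accessible region that overlapped their gene bodies or the 20 kb on either side was taken, which gave 164 of the 315767 regions found in the series. Of these, 16 were promoters of the 8 genes (within 1 kb of an annotated start), 14 were promoters of neighbouring genes and 134 were distal.

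Bulk ATAC-Seq, which reads open DNA by where the Tn5 enzyme can insert, was run on nuclei of hepatocytes from C57BL/6 mice (C57BL/6J in the study's methods). By the labels the mice were 10 to 12 weeks old and on a normal diet, and the methods give a younger age at surgery. Hepatocytes were isolated by perfusing the liver with collagenase in 2 steps. The groups were undamaged liver (0 h) and liver taken 48, 72 and 96 h after partial hepatectomy (PHx), an operation that takes out a large piece of the organ and starts its regrowth, each with 2 libraries. The 0 h mice carried no label of a sham operation, so surgery and regrowth cannot be told apart. The name of the 72 h replicate 2 list follows another pattern than the rest, and whether it came from another run was not tested. In a bulk assay, a change in the share of cells of a type and a change within cells cannot be told apart.

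D-type cyclins are made in response to growth signals and activate CDK4 and CDK6, which phosphorylate the retinoblastoma protein and so release E2F factors. E2F factors switch on E-type cyclins, which bind CDK2 and carry the cell into S phase. Hepatocytes are mostly quiescent in the adult and re-enter the cycle after PHx, and cyclin D1 is the D-type cyclin best known for this step in liver.

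Each library had its own list of peaks, with no read counts, so the depth is unknown and a library that was sequenced more deeply may list more weak peaks. The lists held 105206 to 154577 distinct intervals, and each interval was given its rank within its list by the −log10 p of the peak caller, 1 being the strongest. An absent interval was given rank 154578, the one after the longest list. Differences are of mean log2 rank, 0 h minus the later time, so a positive value means a stronger rank after PHx. An item was called above (or below) 0 h at a time when both libraries of that time ranked stronger (or weaker) than both 0 h libraries. With 2 libraries against 2 the smallest two-sided exact p is 0.333, so these calls carry no p.

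The labelled cell type was checked on promoters of marker genes. All 10 hepatocyte markers were found and 7 were present in all 8 lists, with library medians at the 61st to 75.1st percentile of the list. Of these, 7, 6 and 4 ranked below 0 h at 48, 72 and 96 h, against 27.9%, 29.9% and 19.1% of all coding promoters tested, and 0 above, against 17.3%, 17.2% and 15.0%. Of 6 Kupffer and immune markers, 1 was in all 8 lists, 3 (Cd5l, Csf1r and Ptprc) were in no list and the library medians were at 0, with 1 above 0 h at 48 h and 1 below at 72 h. In all 8 lists were 1 of 5 endothelial, 2 of 4 cholangiocyte and 2 of 5 stellate and fibroblast markers, and in no list were the endothelial Lyve1 and Stab2, the cholangiocyte Krt19 and the stellate Acta2. Medians ran from 0 to 28.2 over libraries for 5 endothelial markers and from 33 to 61.7 for 4 cholangiocyte markers. They ran from 0 to 58.9 for 5 stellate and fibroblast markers, of which 2 ranked above 0 h at 48 h. The part of other cell types in the results was not tested.

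The promoters of the 8 genes differed widely in strength. Ccne1 was stronger than 98.2% of coding promoters by mean rank, Ccne2 than 88.4%, Cdk2 than 86.8% and Cdk6 than 73.1%. Ccnd3 followed at 58%, Ccnd1 at 56.1%, Cdk4 at 47.4% and Ccnd2 at 35.2%. Neighbours in this order overlapped in their ranks over the 8 libraries, except Cdk4 and Ccnd2.

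**Figure D1:**
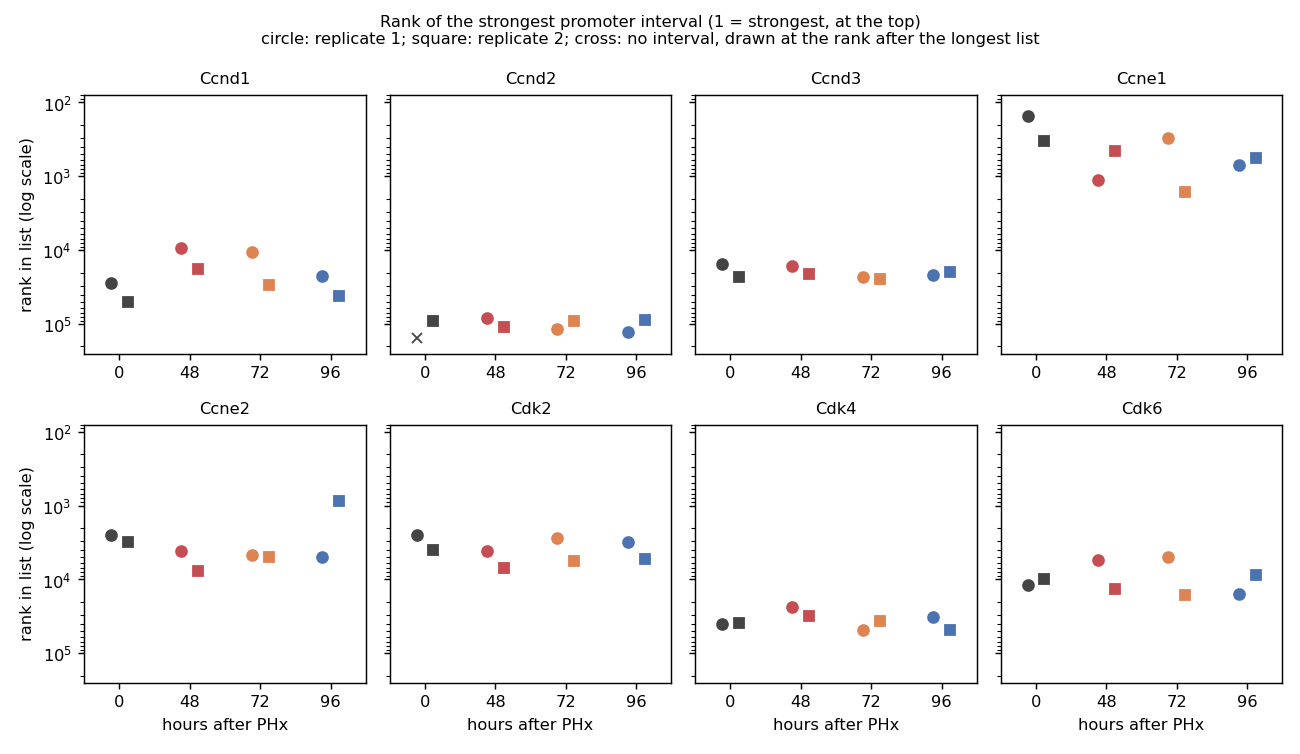
Rank of the strongest promoter interval of each gene in each list (log axis, 1 at the top) against hours after PHx. Circles are replicate 1, squares replicate 2 and a cross marks an absent interval, drawn at rank 154578. The Ccnd1 points at 48 h (9205 and 17851) lie above those at 0 h (28069 and 50628), and the Ccne1 points at 0 h (152 and 333) lie above those at 48 and 96 h.

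At 48 h, 2 of 8 promoters ranked above 0 h (Ccnd1 and Cdk4), against 17.3% of all coding promoters tested, and 3 below (Ccne1, Ccne2 and Cdk2), against 27.9%. At 72 h, 0 of 8 ranked above 0 h, against 17.2%, and 2 below (Ccnd3 and Ccne2), against 29.9%. At 96 h, 0 ranked above, against 15.0%, and 1 below (Ccne1), against 19.1%. With 8 genes, none of these counts stood more than 2 genes from the background share. The median difference over the 8 genes was 0.16, −0.22 and −0.07 at 48, 72 and 96 h, beside −0.16, −0.18 and −0.07 over all coding promoters tested. The 3 times share the same 0 h libraries.

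The 0 h libraries were also set against all 6 PHx libraries, the grouping in which an exact permutation test can reach 0.0357. No promoter of the 8 had both 0 h libraries stronger or weaker than every PHx library, against 4.02% of 15451 coding promoters above and 7.38% below. The lowest exact permutation p among the 8 was 0.107, for Ccne1 (n = 2 and 6 libraries, two-sided, adjusted p = 0.641 over all coding promoters). Among all coding promoters, 1009 had an unadjusted exact p under 0.05 and 0 an adjusted one. Labels give the libraries of a time as separate replicates, and these p-values measure the spread between those libraries.

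**Figure D2:**
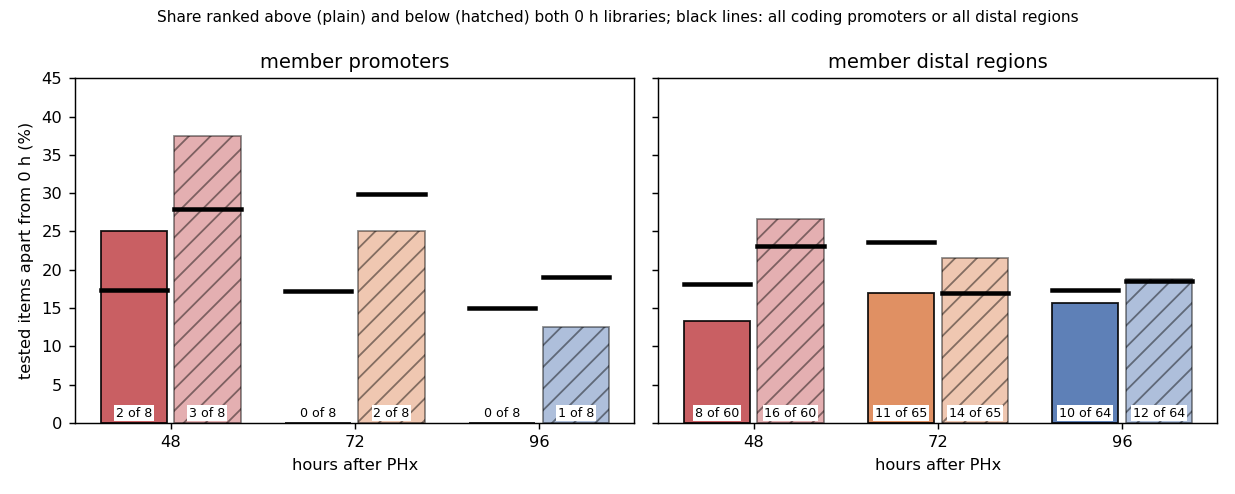
Share (%) of tested promoters (left) and distal regions (right) of the 8 genes that ranked above (plain bars) or below (hatched bars) both 0 h libraries at each time, with the counts printed in the bars. Black lines give the share over all coding promoters or all distal regions. At 48 h 2 of 8 promoters ranked above and 3 of 8 below.

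Ccnd1 encodes cyclin D1. The gene (GRCm38 chr7:144929931-144939925, minus strand) has 1 annotated start, and a single narrow interval, 176 to 375 bp wide, had its summit 65 to 80 bp downstream of it in every list. The promoter ranked 28069 and 50628 before PHx (replicates 1 and 2), 9205 and 17851 after 48 h, 10388 and 29393 after 72 h, and 22336 and 41336 after 96 h. The 48 h libraries were stronger than both 0 h libraries, while the 72 h and 96 h libraries overlapped 0 h. Replicate 1 was the stronger at every time, as it was at the Cdk2 promoter, and the 2 replicates of a time lay far apart.

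The Ccnd1 difference was 1.56 after 48 h on the log2 rank scale (pooled SD 0.64, n = 2 and 2), 1.11 after 72 h (SD 0.86) and 0.31 after 96 h (SD 0.61). The fold enrichment over local background was 6.25 and 4.32 before PHx, 7.41 and 6.17 after 48 h, 8.74 and 5.66 after 72 h and 6.38 and 4.55 after 96 h. In these values the 48 h libraries overlapped those of 0 h. The median fold enrichment of the 13164 coding promoters present in all lists was 11.2 and 11.4 before PHx but 8.09 and 8.67 after 48 h. The 48 h call for Ccnd1 held by percentile, when the lists were ranked by fold enrichment and with promoters of 2 kb, where the difference was 0.84. At 72 h Ccnd1 ranked above 0 h by percentile, when only same-numbered replicates were compared (the replicate block), and also once 0 h replicate 1 or 72 h replicate 2 was left out. At 96 h it did so under the replicate block and once 0 h replicate 1 or 96 h replicate 2 was left out. The block and the left-out libraries compare fewer values, so such calls are easier to reach. Over all PHx libraries the exact permutation p was 0.179 (n = 2 and 6, adjusted p = 0.697).

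Around Ccnd1, 9 distal regions were found, of which 5 were in all 8 lists. The strongest, with its summit 10200 bp downstream of the start (chr7:144928731-144929934), lay just past the end of Ccnd1 in an untranslated or noncoding exon of LTO1. It ranked 13621 and 7648 before PHx, 16194 and 12402 after 48 h, 14182 and 8436 after 72 h and 13411 and 11664 after 96 h, and overlapped 0 h at each time. An intronic region 6372 bp downstream of the start (chr7:144933366-144933849) ranked 72362 and 38022 before PHx and was in neither 48 h list. It ranked 89681 and 73035 after 72 h and 97513 and 57803 after 96 h, and so was below 0 h at 48 and 72 h, although by percentile the 72 h libraries overlapped 0 h. Since both 0 h lists and neither 48 h list held this region, its 48 h call could not have been above. The upstream region at −3628 bp ranked below 0 h at 48 h, and the intronic one at +2150 bp above 0 h at 96 h. These 2 were chosen after their values were seen. The promoter of the neighbour LTO1 ranked stronger in all 6 PHx libraries (15094 to 23590) than at 0 h (28078 and 24691). By the strongest interval of each gene, this call was made for 4.02% of coding promoters. The LTO1 region fell under no naming rule.

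Over the 8 lists, the promoters whose log2 ranks were most like those of Ccnd1, among 13164 genes, were P2rx5 (Pearson r 0.964), Lrrc1 (0.962), Ripor2 (0.937), Asns (0.921) and Zic5 (0.913). P2rx5 encodes an ATP-gated channel and Asns the enzyme that makes asparagine. P2rx5 ranked 2589 and 7568 before PHx and 779 and 1944 after 48 h, and Asns ranked 18766 and 34919 before PHx and 7562 and 11845 after 48 h. For the other members r with Ccnd1 lay between −0.52 and 0.56. All points share the same 8 libraries, and the 5 genes were picked as the highest of those compared.

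Ccnd2 encodes cyclin D2. Its promoter (gene at chr6:127125162-127152193, minus strand) was the weakest of the 8, with fold enrichments of 2.22 to 2.99. It ranked 89522 in 0 h replicate 2, 82236 and 109235 after 48 h, 116452 and 89350 after 72 h and 129427 and 87317 after 96 h, and had no interval in 0 h replicate 1. The intervals were spread over 4 separate regions, with summits from −843 to 1029 bp relative to a start. By percentile the promoter was above 0 h at 48 and 72 h, and with promoters of 500 bp or 2 kb at 48 h. An interval right at the first start was in both 48 h lists and 72 h replicate 2 and in no other list. Accessibility at Ccnd2 was stronger away from the start. The region 28404 bp downstream (chr6:127122325-127122805, intergenic) ranked 23594 and 26379 before PHx, 26316 and 36661 after 48 h, 13032 and 26368 after 72 h and 9828 and 15031 after 96 h. It was above 0 h at 96 h and overlapped 0 h at 48 and 72 h, but ranked by fold enrichment it was below 0 h at 48 h and overlapped 0 h at 96 h. By percentile it was above at 72 h too.

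Further downstream of Ccnd2, 2 regions in introns of Tigar, which encodes a regulator of glucose breakdown, and of the noncoding gene Platr31 ranked below 0 h. The region at +44137 bp (chr6:127106766-127107057) ranked 30133 and 40608 before PHx, 60264 and 52398 after 48 h, 54428 and 46447 after 72 h and 56025 and 66984 after 96 h. It was weaker in all 6 PHx libraries than in both 0 h libraries, with fold enrichments of 6.59 and 5.46 before PHx and 3.35 to 5.05 after PHx. By percentile the 48 h and 72 h libraries overlapped 0 h. Of the 200 bases at its summit, 44.5% were masked as repeats in the reference. The region at +43433 bp ranked 64796 and 52164 before PHx, and was below 0 h at 72 and 96 h.

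Ccnd3 encodes cyclin D3. The gene (chr17:47505051-47599691, plus strand) has separate starts far apart, and the strongest promoter interval was at the internal start at 47593470, 88.5 kb into the gene. It ranked 15380 and 22758 before PHx, 16270 and 21137 after 48 h, 23306 and 24313 after 72 h and 21517 and 19856 after 96 h. These 8 values lay within a narrow range, and the 72 h libraries fell just outside 0 h (difference −0.35, pooled SD 0.28). That difference was 0.00 when percentiles replaced ranks. The starts at 47505051 to 47505149 were weaker, at 18464 and 46760 before PHx and 25629 to 57268 after PHx, and overlapped 0 h at every time.

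The Ccnd3 locus held 36 distal regions, 4 of them in all 8 lists. The strongest was intronic, 6171 bp past the first start (chr17:47510984-47511835), at ranks from 4496 to 19003, and it overlapped 0 h at every time. The intronic region at +24003 bp (chr17:47528656-47529289) ranked 19008 and 34102 before PHx, 49145 and 57137 after 48 h, 51798 and 70857 after 72 h and 45633 and 67351 after 96 h. It was weaker in all 6 PHx libraries than in both 0 h libraries, and its fold enrichment was 12.9 and 8.35 before PHx against 4.09 to 6.47 after PHx. By percentile the 96 h libraries overlapped 0 h. Its sequence is shown because rank and fold enrichment both left a gap between 0 h and every PHx library. Capitals mark the single match to the motifs searched, the NF-Y box CCAAT, at −37 to −33 bp from the summit.

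Ccnd3 +24003, chr17:47528954-47529153, plus strand: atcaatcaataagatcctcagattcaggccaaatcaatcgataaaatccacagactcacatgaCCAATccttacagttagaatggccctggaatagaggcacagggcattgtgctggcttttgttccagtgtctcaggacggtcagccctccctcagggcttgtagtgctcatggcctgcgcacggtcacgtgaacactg

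No base of this window was masked as a repeat. CCAAT stood in 10 of the 26 distal windows named here and in 22.8% of 219293 distal windows of the series. The named windows were picked as the strongest or by their calls, while 53.3% of all distal regions were in 1 list. The sets therefore differ, for this and the other motifs, and were not compared by a test.

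A pair of weak Ccnd3 regions was counted as below 0 h in all PHx libraries. The one at −11182 bp, in an intron of Taf8, ranked 117451 and 73107 before PHx and was in no PHx list, so that it could not have been called otherwise. The one at +57890 bp ranked 86488 and 83150 before PHx and was in 1 PHx list, 48 h replicate 2, at 129357. An absent interval means only that the peak caller's threshold was not met. Of the other named Ccnd3 introns, +3079 bp ranked below 0 h at 72 and 96 h, and +61421 and +83669 bp below at 48 and 72 h. By percentile 1 call was lost at each of these 3 regions. The +61421 bp region was in neither 72 h list and the +83669 bp region in neither 48 h list, while both 0 h lists held each. Those calls could therefore not have been above. The intron region at +46716 bp ranked above 0 h at 48 and 72 h, from 123210 and absent at 0 h to 89304 and 84142 after 48 h. Its 72 h call was lost when absence took the rank after the same list, as was the 48 h call at +83669 bp.

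**Figure D3:**
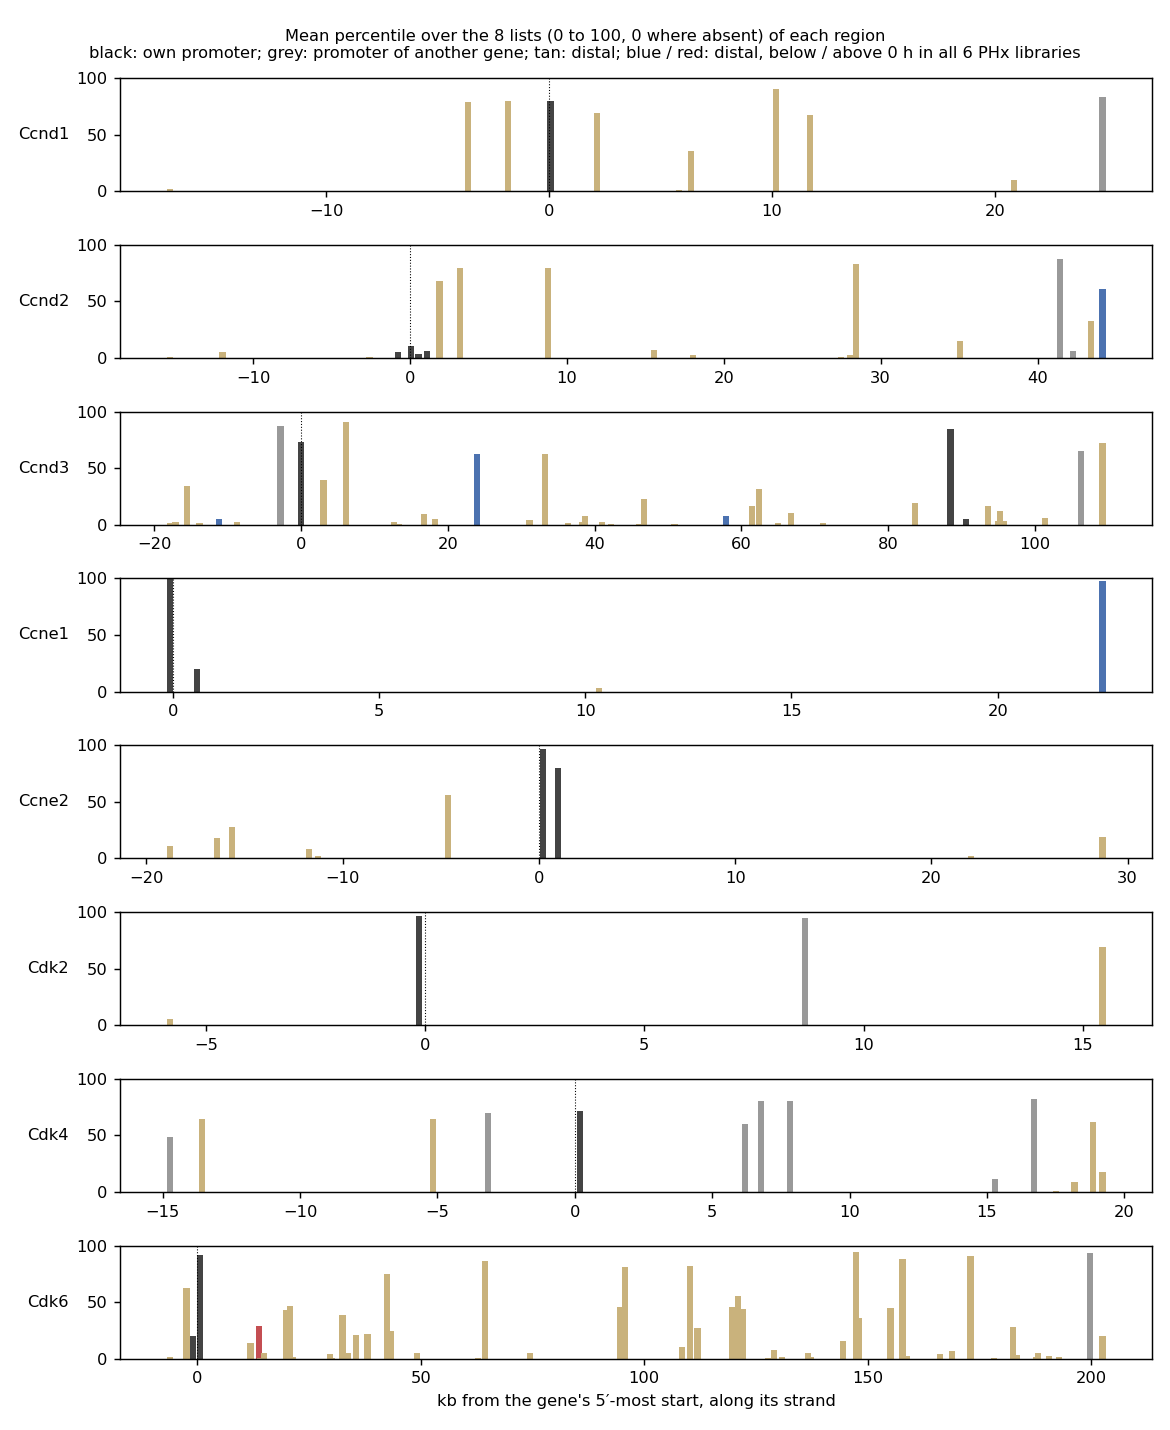
Every region of the 8 genes by the distance of its summit from the first start (kb, along the gene's strand) and its mean percentile over the 8 lists (0 to 100, 0 where absent). Black bars are the gene's own promoters, grey bars promoters of other genes, tan bars distal regions, and blue or red bars distal regions below or above 0 h in all 6 PHx libraries. Ccne1 had 2 distal regions and Cdk6 had 54.

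Ccne1 encodes cyclin E1. Its promoter (gene at chr7:38097984-38107534, minus strand) was among the strongest in the lists, with summits at −65 to −21 bp from the start. It ranked 152 and 333 before PHx, 1116 and 455 after 48 h, 302 and 1625 after 72 h and 693 and 561 after 96 h. All libraries stayed in the strongest part of their list, and the 48 h and 96 h libraries were weaker than both 0 h libraries. The 72 h libraries lay on both sides of 0 h replicate 2.

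The Ccne1 differences were −1.66 after 48 h (pooled SD 0.86, n = 2 and 2), −1.64 after 72 h (SD 1.34) and −1.47 after 96 h (SD 0.59). The fold enrichment was 21.4 and 20.6 before PHx, 13.7 and 16 after 48 h, 19.8 and 14.3 after 72 h and 17.9 and 20.3 after 96 h. Both 0 h values were the highest of the 8 lists. Ranked by fold enrichment, the 96 h libraries overlapped 0 h (difference −0.42) and the 48 h difference was −0.75. The sequence is shown because this was the strongest promoter of the 8 genes. RefSeq (GRCm38.p6) promoter sequences were matched for 5 of the 8 genes, Ccnd3, Ccne1, Cdk2, Cdk4 and Cdk6, and not for Ccnd1, Ccnd2 and Ccne2. Capitals mark matches to the SP/KLF motif GGGCGG on either strand, and bases inside an annotated exon were left off.

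Ccne1 promoter, chr7:38107535-38107740, minus strand: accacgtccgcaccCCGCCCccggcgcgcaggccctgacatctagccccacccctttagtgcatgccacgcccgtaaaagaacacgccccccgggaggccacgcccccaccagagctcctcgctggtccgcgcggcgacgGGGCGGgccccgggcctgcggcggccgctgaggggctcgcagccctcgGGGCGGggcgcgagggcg

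These 206 bases were 78.2% G or C and held 3 SP/KLF matches, and SP/KLF was the only one of the 9 motifs present in this promoter. GGGCGG was found in 4 of the 5 promoters and in 48.2% of 16499 coding promoters (250 bases before to 50 after the RefSeq start). The ratio of observed to expected CpG was 0.702 to 0.947 in the 5 promoters, beside a median of 0.601 over all coding promoters.

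Ccne1 had only 2 distal regions within reach, and 1 of them had a mean percentile of 97.5 over the lists. It lay 22538 bp downstream of the start, past the end of the gene (chr7:38084581-38086282), between genes in GENCODE and in an intron of the RefSeq model Gm30771. It ranked 1419 and 529 before PHx, 6663 and 3496 after 48 h, 2841 and 3746 after 72 h and 6436 and 1629 after 96 h. All 6 PHx libraries were weaker than both 0 h libraries, the nearest being 96 h replicate 2. The fold enrichment was 18.3 and 22.5 before PHx, 10.3 and 12 after 48 h, 16.3 and 14.5 after 72 h and 12.9 and 17.4 after 96 h, so the groups did not overlap in that value. When the lists were ranked by fold enrichment, the 96 h libraries overlapped 0 h. The sequence is shown as that of the strongest distal region of the 8 genes, with SP/KLF matches in capitals.

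Ccne1 +22538, chr7:38084896-38085095, plus strand: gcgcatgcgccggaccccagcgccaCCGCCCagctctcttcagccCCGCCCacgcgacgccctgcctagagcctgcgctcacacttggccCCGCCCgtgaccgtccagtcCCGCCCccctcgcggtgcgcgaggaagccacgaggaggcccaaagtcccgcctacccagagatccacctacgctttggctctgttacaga

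The window was 70.5% G or C, beside a median of 49 over all distal windows, and held 4 SP/KLF matches, a motif present in 4.4% of distal windows. The Ccne1 promoter above was likewise rich in G and C.

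Ccne2 encodes cyclin E2. Its promoter (gene at chr4:11191351-11204779, plus strand) ranked 2489 and 3096 before PHx, 4127 and 7752 after 48 h, 4596 and 4949 after 72 h and 4957 and 857 after 96 h. It was below 0 h at 48 h (difference −1.03, pooled SD 0.48) and at 72 h (−0.78, SD 0.17). Ranked by fold enrichment, the 48 h libraries overlapped 0 h (difference −0.21) and the 72 h difference was −0.18, while by percentile it was −0.43. At 96 h the replicates lay on both sides of 0 h, with replicate 2 the strongest of all 8 lists and a fold enrichment of 15.9 against 7.53 to 11.7 in the others. A second region 962 bp downstream of the first start went the other way, ranking 35071 and 45524 before PHx, 17094 and 23770 after 48 h, 37472 and 13714 after 72 h and 15331 and 19922 after 96 h. It was above 0 h at 48 and 96 h, fell under no naming rule and had no background share of its own. Among the other weaker promoter regions, Cdk6 −997 bp was below 0 h at 72 and 96 h and Ccnd2 +46 bp above at 48 h. The strongest distal region of Ccne2, at −4624 bp (chr4:11186615-11186863), was absent from 0 h replicate 2, ranked 61660 in replicate 1 and 28570 and 42017 after 48 h, and was above 0 h at 48 h and by percentile at 72 h too. It lay in an exon of the RefSeq model A630034I12Rik, and 64% of its window was masked as repeats.

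Cdk4 encodes the kinase that, with CDK6, is bound by D cyclins. Its promoter (gene at chr10:127063534-127067920, plus strand) was moderate, at 39461 and 38308 before PHx, 23252 and 30929 after 48 h, 48322 and 36064 after 72 h and 32229 and 48780 after 96 h. The 48 h libraries ranked above 0 h (difference 0.54, pooled SD 0.21), and the other times overlapped. The fold enrichment was 5.03 in both 0 h libraries and 5.03 and 4.75 after 48 h, so it was not higher at 48 h in itself. It kept its level where the median coding promoter went from 11.2 and 11.4 to 8.09 and 8.67. By fold enrichment Cdk4 ranked above 0 h at 48 h and below it at 72 h.

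Cdk4 lies in a dense stretch with 7 regions at promoters of neighbours. Of these, a region at Tspan31 (6775 bp from the Cdk4 start, 18398 and 18556 before PHx, 23844 to 34055 after PHx) and 1 at Agap2 (16711 bp, 17215 and 16414 before PHx, 22207 to 37434 after PHx) were weaker in all 6 PHx libraries, a call made for 7.38% of coding promoters by the strongest interval of each gene. Its strongest distal region, in a coding exon of March9, ranked from 21835 to 70835 and overlapped 0 h at every time.

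Cdk6, the other kinase of the D cyclins, is the longest of the 8 genes (chr5:3341485-3531008, plus strand). Its promoter ranked 12002 and 9788 before PHx, 5373 and 13360 after 48 h, 5013 and 16059 after 72 h and 15785 and 8749 after 96 h. The libraries of every time overlapped 0 h, and at each time after PHx the replicates lay further apart than at 0 h. The RefSeq window of Cdk6 held an E2F match, TTTTACGC, at −198 to −191 bp from the RefSeq start, upstream of the accessible region (chr5:3343718-3344785) and so outside it. The E2F motif TTTNNCGC was found in 2 of the 5 promoters (Cdk2 and Cdk6) and in 6.45% of coding promoters. N stands for any base in this search, so a match such as TTTTACGC need not be an E2F site.

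Cdk6 held 54 distal regions, 13 of them in all 8 lists and 21 in 1 list. The 3 strongest lay deep in the introns, at +147482, +173055 and +157795 bp. The region at +147482 bp (chr5:3491026-3491721) ranked 5323 and 4485 before PHx and 2373 to 16941 after PHx, and overlapped 0 h throughout. The region at +173055 bp (chr5:3516614-3517437) ranked 8238 and 7662 before PHx, 20560 and 5861 after 48 h, 17264 and 17465 after 72 h and 10125 and 11131 after 96 h. It was below 0 h at 72 and 96 h, as was the region at +157795 bp, with 7817 and 16641 before PHx and 16817 to 18119 at 72 and 96 h. The gap at +157795 bp was small next to the spread at 0 h. The region at +19841 bp was below 0 h at 48 and 96 h, and that at +38063 bp above 0 h at 48 and 96 h, where the 48 h call was lost when absence took the rank after the same list. By percentile the calls at +157795 bp and the 96 h call at +173055 bp were lost, while +19841 and +38063 bp were above 0 h at 72 h. Ranked by fold enrichment, +157795 and +173055 bp were below 0 h in all 6 PHx libraries.

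The intronic region at +13827 bp (chr5:3357272-3357843) was the 1 distal region of the 8 genes counted as above 0 h in all 6 PHx libraries. It was in neither 0 h list, so it could not have been called below, and it ranked 89304 and 73898 after 48 h, 83921 and 110427 after 72 h and 89894 and 54663 after 96 h. The fold enrichment after PHx was 3.01 to 4.91, so it was a weak region throughout, and 37.5% of its window was masked as repeats. The call was lost when intervals were cut to 200 bp at the summit, among the 50000 strongest intervals, and when an absent interval took the rank after its own list. Its sequence is shown with the C/EBP match in capitals.

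Cdk6 +13827, chr5:3357620-3357819, plus strand: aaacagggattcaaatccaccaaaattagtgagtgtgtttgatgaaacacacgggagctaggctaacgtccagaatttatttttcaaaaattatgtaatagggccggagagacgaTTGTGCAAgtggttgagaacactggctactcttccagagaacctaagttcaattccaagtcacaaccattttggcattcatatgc

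The C/EBP motif TTGCNNAA, here on the minus strand 15 to 22 bp after the summit, was present in 2 of the 26 named windows and in 9.85% of all distal windows.

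Cdk2 encodes the kinase bound by E cyclins. Its promoter (gene at chr10:128697939-128705031, minus strand) had its summit at −154 to −141 bp from a Cdk2 start in all 8 lists, and the region also came within 1 kb of a start of Pmel. It ranked 2476 and 3952 before PHx, 4065 and 6983 after 48 h, 2746 and 5617 after 72 h and 3098 and 5325 after 96 h. The 48 h libraries were below 0 h (difference −0.77, pooled SD 0.52), with the nearest libraries at 3952 and 4065. The fold enrichment was 17.9 and 16.8 before PHx, 11.1 and 10.5 after 48 h, 16 and 12.1 after 72 h and 15.2 and 14.6 after 96 h. Ranked by fold enrichment, Cdk2 was below 0 h at all 3 times and was the 1 promoter of the 8 apart from 0 h in all PHx libraries. By percentile the 48 h libraries overlapped 0 h (difference −0.62). The promoter is shown because it held 4 of the 9 kinds of motif, as did that of Ccnd3, with capitals for matches.

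Cdk2 promoter, chr10:128705052-128705301, minus strand: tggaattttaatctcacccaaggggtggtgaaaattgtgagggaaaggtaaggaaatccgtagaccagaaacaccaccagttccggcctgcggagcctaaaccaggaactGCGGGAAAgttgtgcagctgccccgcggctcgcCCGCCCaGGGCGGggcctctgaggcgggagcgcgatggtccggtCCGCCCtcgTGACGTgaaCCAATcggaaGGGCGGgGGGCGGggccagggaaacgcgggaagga

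It held an E2F match (GCGGGAAA, at −140 to −133 bp from the RefSeq start), 5 SP/KLF matches, a CRE (TGACGT, at −54 to −49 bp) and a CCAAT box (at −45 to −41 bp). TGACGT was found in 2 of the 5 promoters and in 8.95% of coding promoters, and CCAAT in 2 and in 38.8%. None of the 5 held the AP-1, FOXA, C/EBP or STAT motifs (TGANTCA and TGTTTAC, then TTGCNNAA and TTCNNNGAA), which stood in 6.99%, 2.95%, 10% and 7.8% of coding promoters. The TEAD motif GGAATG was in the Ccnd3 promoter only, and in 13.2% of coding promoters. Among the 26 distal windows, AP-1 was found in 3 (7.59% of all distal windows), TEAD in 2 (11.2%), STAT in 2 (5.51%), CRE in 2 (2.16%), SP/KLF in 2, FOXA in 1 (3.69%) and E2F in 0 (1.12%). The strongest distal region of Cdk2, in an intron of Rab5b at +15453 bp, ranked 27321 and 23944 before PHx and was below 0 h at 48 h (38833 and 84142) and 96 h (34358 and 49934).

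Counted together, 134 distal regions belonged to the 8 genes, with 100 summits in introns, 18 between genes, 13 in untranslated or noncoding exons and 3 in coding exons. Of these, 32 (23.9%) were in all 8 lists and 52 (38.8%) in 1, beside 15.3% and 53.3% of all distal regions near coding genes. At 48 h, 8 of 60 tested ranked above 0 h, against 18.1% of all distal regions, and 16 below, against 23.1%. At 72 h, 11 of 65 ranked above, against 23.6%, and 14 below, against 17.0%. At 96 h, 10 of 64 ranked above, against 17.4%, and 12 below, against 18.5%. In all PHx libraries, 1 of 82 was above, against 2.12%, and 5 below, against 4.48%, of which Cdk6 +13827 and Ccnd3 −11182 were held by lists of 1 side only. Of 62 regions tested at 2 or more times, 3 (all at Cdk6) were above 0 h at 1 time and below at another, against 4.85%. These shares were not tested against the background. A region counted as tested where at least 2 of the lists compared held it, so a region held by lists of 1 side only had its direction fixed by that filter, among the members and in the background alike.

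**Figure D4:**
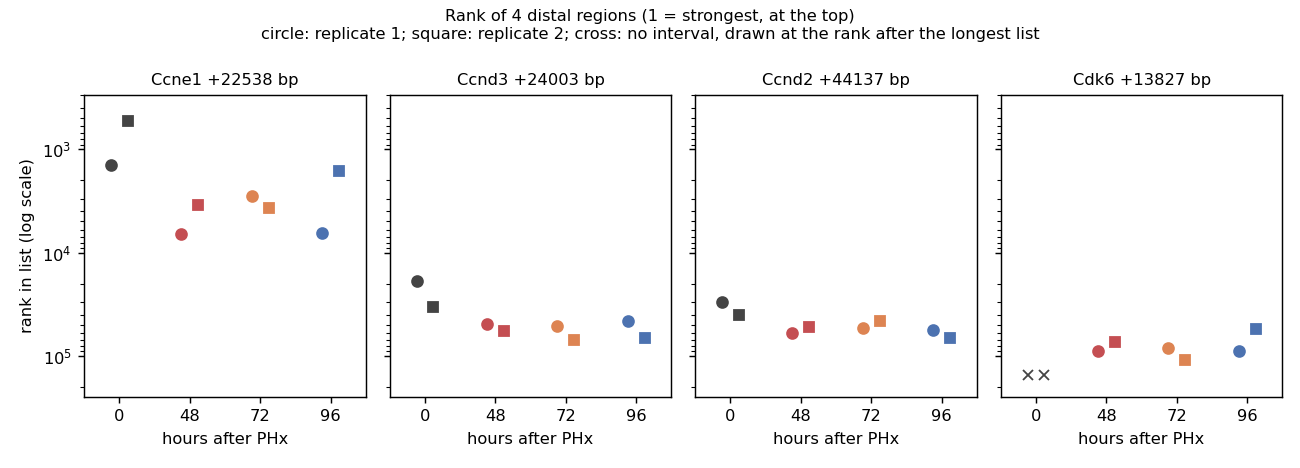
Rank in each list (log axis, 1 at the top) of the 4 strongest distal regions that separated both 0 h libraries from every PHx library, against hours after PHx. Circles are replicate 1, squares replicate 2 and crosses absent intervals. Ccne1 +22538, Ccnd3 +24003 and Ccnd2 +44137 sit higher at 0 h, and Cdk6 +13827 was absent at 0 h.

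The other genes of the pathway were described by a list of 31. Of these, 4 promoters ranked above 0 h and 5 below at 48 h, 4 and 9 after 72 h, and 5 and 7 after 96 h. Over all coding promoters the shares were 17.3% and 27.9%, 17.2% and 29.9%, and 15.0% and 19.1%, and the counts were not tested against them. By percentile 8 ranked above and 7 below at 72 h, by fold enrichment 3 above and 3 below at 96 h, and under the replicate block 7 above and 8 below at 48 h. Ccna2, which encodes the cyclin A of S phase, had one of the strongest promoters of all, at 12 in both 0 h libraries, and was below 0 h at every time (17 to 43). Its percentile rounded to 100 in every list, so the shift was small on that scale. Ccnh, a subunit of the CDK-activating kinase, ranked 6673 and 4216 before PHx and 7031 to 14967 after PHx. Both reached the smallest exact permutation p the design allows (0.0357, n = 2 and 6 libraries, adjusted p = 0.547).

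Of the CDK inhibitors, Cdkn2b (p15) ranked above 0 h at every time, with 3980 and 4466 before PHx and 1456 and 1060 after 48 h. Cdkn2a was above 0 h at 72 and 96 h (27907 and 35847 before PHx, 22762 to 26379 at these times), and Cdkn2d below at both. Rbl1, a relative of the retinoblastoma protein, was above 0 h at 72 and 96 h. Ccna1, the germline cyclin A, was above at 48 and 72 h. Cks1b, a partner of CDKs, ranked 11688 and 12582 before PHx and was below at 48 h (30373 and 26673) and 72 h. Fbxw7, part of the ligase that degrades cyclin E, was below at 72 and 96 h. E2f5 ranked 1472 and 1395 before PHx, was above at 48 h (342 and 452) and was below at 72 h (2423 and 2924) and 96 h (1678 and 1977).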

How the data were processed

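Bulk ATAC-Seq peak lists of 8 hepatocyte libraries were analysed. Per the study's methods, the authors trimmed reads, mapped them to mm10 with Bowtie2, removed duplicates and called peaks with MACS2, and 1 list was deposited per library. Each deposited line holds a display score (not used), a summit position, a −log10 p, a −log10 q and a fold enrichment against the local background. The lowest deposited −log10 p was 2. The lists hold no counts, so depth is unknown and no interval was given.

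Lines of 1 interval were collapsed to the highest −log10 p and ranked within their list. Promoters were intervals within 1 kb of 1 of 41438 coding starts (GENCODE M21). Overlapping intervals of the 8 lists were merged to regions, and sequence came from GRCm38.p6, in which 0 intervals ended past a chromosome. For 0 h against PHx, an exact permutation test over 28 ways was used, two-sided, on mean log2 rank, with Benjamini-Hochberg adjustment. There an absent interval took the rank after its own list. Scripts were tested on simulated data and used Python 3.11.15, NumPy 2.4.6, pandas 2.3.3 and SciPy 1.17.1.

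The members and lists were chosen with earlier results of these data known. Named distal regions were the strongest of each gene by mean percentile and any called at 2 or more times. Pathway genes were named by the same call rule, and 5 genes by likeness to Ccnd1. Regions at the neighbours LTO1, Tspan31 and Agap2 fell under none of these rules. Nor did the Ccne2 region at +962 bp and the Ccnd1 regions at −3628 and +2150 bp. Same-numbered replicates did not deviate together (correlations −0.09 to 0.12 over pairs of times), so the numbers were not used as pairs. At the Ccnd1 and Cdk2 promoters, however, replicate 1 was the stronger at every time. The study describes more replicates at 0 and 48 h, which were not analysed here.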

Additional observations from a re-analysis of the deposited data

Results flagged for a closer look

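At Cdk6, 3 regions were called in opposite directions at different times. These were 3 of the 62 member regions tested at 2 or more times, against 4.85% of all distal regions, so such calls were about as common as elsewhere. The difference between times was not tested, and both times share the same 0 h libraries. At +42430 bp (chr5:3385829-3387154) the ranks were 29386 and 38625 before PHx, 43790 and 41725 after 48 h and 20760 and 20673 after 72 h, so the log2 rank difference was −0.34 after 48 h and 0.70 after 72 h. At +120953 bp (chr5:3464481-3464979) they were 51732 and 53264 before PHx, 72468 and 65783 after 48 h and 50127 and 24462 after 72 h, with differences of −0.40 and 0.58. At +182480 bp, in an untranslated or noncoding exon, the region ranked 81649 and 83150 before PHx, was in neither 48 h list (so that its 48 h call could not have been above), was absent from 72 h replicate 1 but ranked 38085 in 72 h replicate 2, and ranked 64095 and 76700 after 96 h, with differences of −0.91 at 48 h and 0.23 at 96 h. By percentile the 48 h libraries overlapped 0 h at the first and the second of these regions.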

How the results depend on the processing

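Percentiles in place of ranks gave 2 promoters above and 1 below at 72 h, and distal counts of 23 above and 9 below at 72 h, 7 below at 96 h, and 2 above and 3 below in all PHx libraries. The Ccnd3 promoter difference at 72 h turned from −0.35 to 0.00. Ranking by fold enrichment gave 4 promoters below at 72 h and 1 apart from 0 h in all PHx libraries. The 50000 strongest intervals of each list gave distal counts of 3 above and 7 below after 48 h, 3 and 5 after 72 h, 4 and 7 after 96 h, and 0 and 3 in all PHx libraries, with fewer regions tested. Using 1 start per gene gave 1 promoter below at 72 h. The replicate block gave 2 promoters above (Ccnd1 and Ccnd2) and 4 below at 72 h (Ccne1 and Cdk2 added), 2 above (Ccnd1 and Ccnd2) and 2 below at 96 h (Cdk2 added) and 19 distal regions below at 96 h, and its lowest exact permutation p was 0.125 (smallest possible 0.0625). Windows of 200 bp gave 0 distal regions above in all PHx libraries. Flanks of 50 kb gave 20, 26 and 17 distal regions above at 48, 72 and 96 h, 20 below at 96 h, and 5 above and 10 below in all PHx libraries. Flanks of 5 kb gave 7 below at 96 h and 2 below in all PHx libraries. The other rank of absence, chosen after seeing the data, gave 6 distal regions above at 72 h and 0 above in all PHx libraries. Under these alternatives 99 counts stayed within 1.5 times and 34 did not. Shares over all coding promoters or all distal regions were computed only with all 8 libraries, ranks by −log10 p, promoters of 1 kb and flanks of 20 kb. Whether the background moved likewise under the alternatives, or with a library left out, was not tested. The same holds for the pathway counts.

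Leaving out 1 library leaves fewer values to separate, so no count could fall. Where a group was left with 1 library, an item held by only 1 of the lists compared counted as tested. Regions held by 1 list, 38.8% of the member distal regions, could then be called, which could raise these counts. Promoters ran from 2 to 4 above and 3 to 4 below after 48 h, 0 to 2 and 2 to 5 after 72 h, 0 to 3 and 1 to 3 after 96 h, and 0 to 3 apart in all PHx libraries. The 31 other pathway promoters ran from 4 to 11 above and 5 to 14 below after 48 h, 4 to 9 and 9 to 17 after 72 h, and 5 to 13 and 7 to 16 after 96 h, the highest coming without 48 h replicate 1 (11), 0 h replicate 1 (14 and 17), 72 h replicate 2 (9), 96 h replicate 1 (13) and 96 h replicate 2 (16). Distal regions ran from 8 to 38 above and 16 to 34 below after 48 h, 11 to 37 and 14 to 34 after 72 h, 10 to 40 and 12 to 30 after 96 h, and 1 to 5 and 5 to 21 in all PHx libraries. The highest promoter counts came without 48 h replicate 2 (4 above), 72 h replicate 1 (5 below), 96 h replicate 1 (3 above) and 0 h replicate 2 (3 apart). The highest distal counts came without 48 h replicate 1 (38), 0 h replicate 2 (34 at 48 h), 72 h replicate 1 (37), 0 h replicate 1 (34 at 72 h, 30 at 96 h, 21 in all PHx libraries) and 96 h replicate 2 (40). Depth is unknown, and its part in the absence of weak regions was not tested.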
